A study of Mus musculus with 2 samples.

Results

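A set of 9 genes encodes the liver enzymes that break down tyrosine and tryptophan: Tat, Hpd, Hgd and Fah on the tyrosine side and Tdo2, Afmid, Kmo, Kynu and Haao on the tryptophan side. They were chosen by name for their pathway, and all 9 had a row among the 43346 Ensembl genes of each deposited gene table. The RNA came from whole livers of 2 newborn mice of the inbred strain B6NCrl (C57BL/6N) on postnatal day 0, called pup 1 and pup 2. The pups were littermates born to 1 dam, the labels name no treatment or transgene, their sex was not collected, and age is given to the day only. Each library began with 10 ng of RNA over 200 nt, to which ERCC spike-in RNAs were added. The livers form 1 group of 2 biological replicates, so no contrast between conditions was available, no test was made and no p-value is given.

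Both livers were sequenced to a similar depth, with 42124582 expected counts (reads assigned to genes by estimation) for pup 1 and 41443673 for pup 2. Levels are given in TPM, the length-corrected abundance of a gene's transcripts relative to all transcripts of the library, which allows genes to be compared. All 5 hepatocyte markers were detected (Alb, Apoa1, Ttr, Ahsg and Trf) and summed to 95090 TPM in pup 1 and 87941 in pup 2. All 5 kidney markers (Slc34a1, Umod, Slc12a1, Aqp2 and Nphs1) were at 0 counts in both libraries. Macrophage, neutrophil and erythroid markers were also present. A newborn liver still houses blood formation, and which cells gave these RNAs was not tested. The 4 striated muscle markers summed to 30.8 TPM in pup 1 and 620 in pup 2, and the 4 pancreas markers to 1.96 and 87.4 TPM, so the markers of both tissues were far higher in pup 2. In a whole organ, fewer cells of a type and less RNA per cell cannot be told apart.

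In tyrosine breakdown Tat removes the amino group, Hpd converts the resulting keto acid to homogentisate, Hgd opens its ring, Gstz1 isomerises the product, and Fah splits it into fumarate and acetoacetate. Tryptophan enters the kynurenine pathway through the dioxygenase Tdo2, Afmid releases kynurenine from its formyl form, Kmo hydroxylates kynurenine, Kynu cleaves alanine from it, and Haao opens the ring of hydroxyanthranilate on the way to quinolinate and NAD. Tat and Tdo2 are textbook examples of liver enzymes that are low before birth and induced by glucocorticoids, and inherited loss of Fah, Hpd, Tat or Hgd causes the tyrosinaemias and alkaptonuria.

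RefSeq promoter windows, 250 bases before to 50 bases after the annotated start on GRCm38.p6, were on hand for 8 of the 9 genes; Kynu had no entry. The windows below belong to Tat, which differed most between the littermates, Tdo2, the lowest of the 9, Hpd, the highest, and Afmid, which starts beside a gene on the other strand. Each is written 5′ to 3′ on the strand of its gene, as chr8:109990186-109990485 (plus strand) for Tat, chr3:81975679-81975978 (minus strand) for Tdo2, chr5:123182674-123182973 (minus strand) for Hpd and chr11:117825669-117825968 (plus strand) for Afmid. The M21 start of Tdo2, at 81976202, lies upstream of the RefSeq window. Capitals mark matches to the motifs described after them, on either strand.
Tat: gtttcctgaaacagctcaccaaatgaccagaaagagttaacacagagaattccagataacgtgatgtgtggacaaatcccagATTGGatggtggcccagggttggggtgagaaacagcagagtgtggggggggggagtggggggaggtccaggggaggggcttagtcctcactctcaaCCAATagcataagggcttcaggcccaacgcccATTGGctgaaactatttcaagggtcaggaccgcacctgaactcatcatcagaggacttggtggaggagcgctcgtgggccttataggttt
Tdo2: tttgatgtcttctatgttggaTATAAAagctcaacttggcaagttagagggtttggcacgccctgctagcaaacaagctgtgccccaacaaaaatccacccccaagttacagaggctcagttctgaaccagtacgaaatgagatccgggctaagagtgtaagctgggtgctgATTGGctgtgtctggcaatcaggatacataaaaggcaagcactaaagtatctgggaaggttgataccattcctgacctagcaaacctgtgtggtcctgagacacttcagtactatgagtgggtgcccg
Hpd: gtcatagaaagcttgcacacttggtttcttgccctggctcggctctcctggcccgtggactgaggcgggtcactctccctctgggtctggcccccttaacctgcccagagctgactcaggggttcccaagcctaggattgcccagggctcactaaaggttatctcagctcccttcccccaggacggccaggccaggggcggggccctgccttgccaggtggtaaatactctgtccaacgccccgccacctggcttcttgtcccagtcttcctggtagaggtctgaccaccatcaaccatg
Afmid: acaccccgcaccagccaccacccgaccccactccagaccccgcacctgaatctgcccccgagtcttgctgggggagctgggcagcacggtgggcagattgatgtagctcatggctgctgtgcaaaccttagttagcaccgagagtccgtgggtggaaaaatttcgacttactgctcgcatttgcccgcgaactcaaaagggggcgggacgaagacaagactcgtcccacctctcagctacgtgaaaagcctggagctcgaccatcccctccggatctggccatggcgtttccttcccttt

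A set of 6 short motifs was looked for on both strands in these windows and in the 32851 windows of the table. For general promoter elements the letters were TATAAA, bound by the initiation complex, and CCAAT, bound by NF-Y. For hormone and hepatocyte factors they were TGTTCT, a part of the glucocorticoid receptor site; GTTAAT, a part of the HNF1 site; TTGCAA, the core of the C/EBP site; and TGTTTAC, the forkhead motif. No match overlapped another in these 8 windows. The Tat window held CCAAT 3 times, at 168, 72 and 40 bases before the start. The Tdo2 window held TATAAA 229 bases and CCAAT 78 bases before the start. CCAAT was in 3 of the 8 windows (Tat, Tdo2 and Hgd) and in 37.4% of all windows, and TATAAA in 2 of 8 (Tdo2 and Hgd) and in 13.6% of all.

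TGTTCT was in 2 of 8 windows, those of Kmo and Haao, and in 19.0% of all windows; it was not among the letters of the Tat and Tdo2 windows. GTTAAT was in the Haao window, 41 bases before the start, and in 7.10% of all. The C/EBP core was in none of the 8 and in 6.23% of all windows, and the forkhead motif in none and in 3.65%. These matches describe letters in a short window and not bound sites, and elements farther away were not searched. CpG dinucleotides numbered 19 in the Fah window and 18 in that of Afmid, against 2 for Hgd, 4 for Tdo2 and 5 for Tat, with a median of 7 over all windows (quartiles 3 and 20). The 2 windows with the most CpG thus belong to a high and a middling gene in level, and the Hpd window, that of the highest gene, had 7.

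Each liver held all 9 genes at 1 TPM or above, the limit used for detection, which was passed in both by 52.9% of the 21474 protein-coding genes. The 9 together held 0.122% ± 0.00532 (SD, n = 2) of all TPM. Of the 9, 3 (Hpd, Fah and Hgd) passed 100 TPM in both livers, as did 4.57% of protein-coding genes. The median of the 9 was 67.3 ± 15.4 TPM, and their means ran from 7.58 TPM for Tdo2 to 592 TPM for Hpd. Hence the tyrosine side held the highest members and the tryptophan side the lowest.

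Tat (ENSMUSG00000001670; chr8, 109990437 to 109999803, plus strand, GENCODE M21 on GRCm38), the aminotransferase that starts tyrosine breakdown, was at 94.4 TPM (pup 1) and 56.4 TPM (pup 2) (75.4 ± 26.9, SD, n = 2). Its 7647 and 4542 expected counts make this the least repeatable level of the 9, high in pup 1 and low in pup 2. Hpd (ENSMUSG00000029445; chr5, 123171807 to 123182727, minus strand), the dioxygenase that makes homogentisate, was at 562 and 623 TPM (592 ± 43.2), with 25524 and 28655 counts. By mean TPM it ranked 179 among protein-coding genes, the highest of the 9, and both livers lay far above every other member. The M21 span of Psmd9, a proteasome assembly gene on the plus strand at 47.5 and 44.9 TPM, covers all of Hpd; strand use in the counting is not given in the sources used here, so reads in shared bases cannot be told apart. The same holds for Gm26745, a noncoding gene on the strand of Hpd whose span covers it, at 12 and 4 counts.

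Hgd (ENSMUSG00000022821; chr16, 37580153 to 37632020, plus strand), the dioxygenase lost in alkaptonuria, was at 115 and 134 TPM (125 ± 13.2), with 5893 and 6964 counts; Gm46559, annotated antisense within it, is not analysed here. Fah (ENSMUSG00000030630; chr7, 84585159 to 84606722, minus strand), which completes the pathway, was at 251 and 279 TPM (265 ± 19.6), with 12097 and 13626 counts. Along the tyrosine branch the levels therefore did not fall or climb steadily: the entry enzyme Tat was the lowest, the next enzyme Hpd the highest, and Hgd dipped below both Hpd and Fah in each liver.

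Tdo2 (ENSMUSG00000028011; chr3, 81957090 to 81976202, minus strand), the liver dioxygenase that admits tryptophan to the kynurenine pathway, was at 7.33 TPM (pup 1) and 7.83 TPM (pup 2) (7.58 ± 0.354, SD, n = 2). It was the lowest of the 9 in both livers, with 505 and 559 counts and rank 6579 among protein-coding genes. Afmid (ENSMUSG00000017718; chr11, 117825924 to 117839908, plus strand), the formamidase, was at 30.0 and 28.6 TPM (29.3 ± 1.03). Its start lies 168 bases inside the span of Tk1, a thymidine kinase gene of dividing cells on the other strand, at 90.4 and 85.8 TPM. The RefSeq starts of these neighbours are 95 bases apart. On TPM, Afmid was 3.0-fold below Tk1, with nearly the same ratio in each liver (log2 −1.59 ± 0.0028). With counts scaled to depth but not to length the log2 ratio was −0.78 ± 0.082, so the close match between livers was particular to TPM. Gm20708, a same-strand gene model that spans Afmid, held 25.7 and 17.6 counts against 2014 and 2077 for Afmid, and how reads were divided between these models is uncertain.

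Kmo (ENSMUSG00000039783; chr1, 175620381 to 175662116, plus strand), the kynurenine hydroxylase of the outer mitochondrial membrane, was at 23.3 and 24.8 TPM (24.1 ± 1.1). Its M21 span overlaps 5255 bases of Fh1, the fumarase gene on the other strand, at 80.5 and 87.1 TPM, with the same limit on strand. Of the Kmo transcripts only Kmo-204, at 0 and 3.77 counts, reaches these bases, and the main transcript Kmo-201 starts beyond them. Kynu (ENSMUSG00000026866; chr2, 43555329 to 43682715, plus strand), the hydrolase that splits alanine from hydroxykynurenine, was at 17.3 and 18.4 TPM (17.9 ± 0.742). Haao (ENSMUSG00000000673; chr17, 83831156 to 83847963, minus strand), the last enzyme before quinolinate, was at 78.1 and 82.3 TPM (80.2 ± 2.94), the highest of the tryptophan side in each liver. Each of these 3 genes was slightly higher in pup 2 than in pup 1. Kmo, Kynu and Haao are also made in kidney and in cells of the macrophage line; the kidney markers were at 0, and the 6 macrophage markers, all detected, summed to 278 and 275 TPM.

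**Figure D1:**
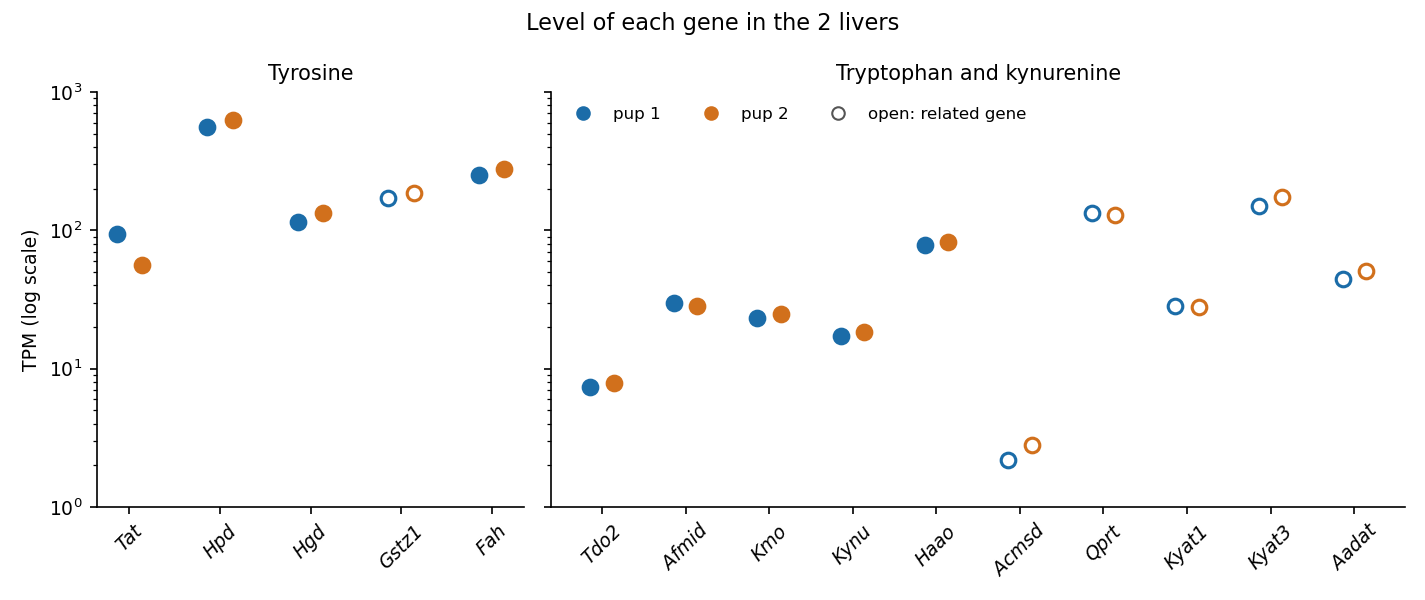
TPM on a log axis for each gene in the order of the pathways, in pup 1 (blue) and pup 2 (orange); filled points are the 9 enzymes and open points related genes. Hpd lies highest at 562 and 623 TPM and Tdo2 lowest of the 9 at 7.33 and 7.83 TPM, while the Tat points stand apart at 94.4 and 56.4 TPM.

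Set against each other within each liver, the tyrosine branch summed to 1023 TPM in pup 1 and 1092 in pup 2, and the tryptophan branch to 156 and 162 TPM. The branches differed by 2.73 ± 0.030 on the log2 scale (SD, n = 2), or 6.65-fold. A log2 ratio was called larger than the spread between livers when its sign was shared by the livers and the size of its mean exceeded 3 SD; the branch ratio passed. Without Hpd, an alternative chosen after seeing the data, it was 1.55 ± 0.019 and passed as well.

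The order of the mean levels was Hpd, Fah, Hgd, Haao, Tat, Afmid, Kmo, Kynu and Tdo2. Of the 8 pairs of neighbours in it, 5 differed by more than the spread: Hpd over Fah, Fah over Hgd, Hgd over Haao, Kmo over Kynu and Kynu over Tdo2. Haao and Tat changed places between the livers (log2 ratio −0.27 in pup 1 and 0.55 in pup 2). Tat over Afmid was 1.65 and 0.98, a mean of 1.32 ± 0.48 that missed the rule. Afmid over Kmo was 0.29 ± 0.12 and did not pass either; on counts scaled to depth but not to length it was −0.12 ± 0.032, the other way round.

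Most of the 17 pairs set out were enzymes that follow or compete with each other. Of the 17, 16 gave a ratio in both livers, and 15 of these were larger than the spread. The 15 include Hpd over Hpdl, which rests on 12 and 1 counts of Hpdl. The share of other gene pairs that would pass this rule was not computed. Between successive steps of tyrosine breakdown, Tat was 8.10-fold below Hpd (log2 −2.57 in pup 1 and −3.47 in pup 2). Hpd was 4.75-fold above Hgd, Hgd 2.13-fold below Fah, and the isomerase Gstz1 1.49-fold below Fah.

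Along the kynurenine pathway Tdo2 was 3.87-fold below Afmid, Kmo 1.35-fold above Kynu, and Kynu 4.49-fold below Haao. Haao in turn was 1.63-fold below Qprt, which turns quinolinate into a precursor of NAD and was at 133 and 129 TPM. Acmsd, the decarboxylase that draws the same intermediate away from quinolinate, was at 2.17 and 2.79 TPM and thus 53.2-fold below Qprt. For kynurenine itself, Kmo was 6.71-fold below the aminotransferase Kyat3 and 1.97-fold below Aadat, which send kynurenine towards kynurenic acid. Among the 5 tryptophan enzymes the level was therefore lowest at the entry and highest at Haao, and each of these 7 ratios exceeded the spread between livers.

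Tdo2 shares its reaction with the dioxygenases Ido1, known from immune responses, and Ido2. Ido1 had 0 counts in both livers. Against the level that 3 counts would give in each library (0.0559 and 0.0555 TPM), Tdo2 was 131-fold higher in pup 1 and 141-fold higher in pup 2. The authors' upper bounds for Ido1, 0.0873 and 0.0861 TPM, lie above that level, so the folds against them are smaller. Ido2 had 9 and 16 counts, or 0.10 and 0.17 TPM, which put Tdo2 58.1-fold above it (log2 6.2 in pup 1, 5.53 in pup 2); with the posterior mean TPM the log2 ratio was 4.85 in place of 5.86. Low as it was, Tdo2 was thus the main tryptophan dioxygenase RNA of these livers. Tat, the other textbook enzyme that is low before birth, was above Tdo2. The log2 ratio was 3.69 in pup 1 and 2.85 in pup 2, a mean of 9.63-fold. Hpdl, a mitochondrial relative of Hpd, held only 12 and 1 counts.

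**Figure D2:**
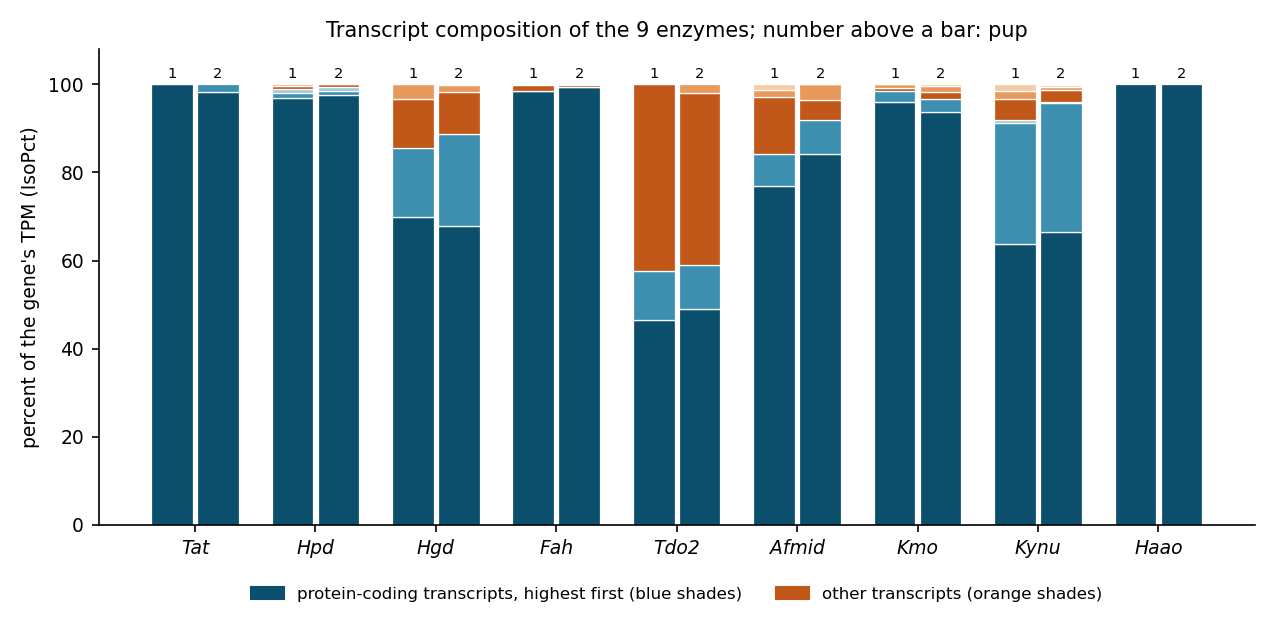
Percent of each gene's TPM (vertical axis) assigned to each of its annotated transcripts, with a bar per pup; blue shades are protein-coding transcripts and orange shades others. Tat, Hpd, Fah, Kmo and Haao are nearly all 1 coding transcript, and Tdo2 has the largest orange part, 42.4% in pup 1 and 41.1% in pup 2.

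The 9 genes have 40 annotated transcripts, 19 of them protein-coding. Of the 40, 15 made up 5% or more of their gene's TPM in both livers, among them the noncoding Hgd-202 and Tdo2-203, and 4 noncoding ones had 0 counts in both. In 5 genes 1 coding transcript held over 90% in each liver. These were Tat-201 (100% and 98.4%), Hpd-201 (96.8% and 97.6%), Fah-201 (98.6% and 99.4%), Kmo-201 (96.1% and 93.8%) and Haao-201, the only one of its gene. The lower TPM of Tat in pup 2 was carried by this main transcript, at 94.4 TPM (pup 1) and 55.5 TPM (pup 2), while the short coding Tat-202 had 0 and 21.7 counts.

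Hgd and Kynu each had 2 coding transcripts at 5% or more in both livers, as did Tdo2 and Afmid, described below. Hgd-203 held 69.8% and 67.7% of Hgd, and Hgd-201, which starts farther downstream, 15.7% and 21.1%. The noncoding Hgd-202 (577 nt) held a further 11.1% and 9.47%, and on coding transcripts alone Hgd was at 98.7 and 119 TPM (109 ± 14.4). Kynu-201 held 63.9% and 66.5%, and the shorter Kynu-203 27.3% and 29.3%. For Hgd and Kynu the leading transcript was the same in each littermate.

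In Tdo2 the full-length coding transcript Tdo2-201 (3431 nt) held 46.6% of TPM in pup 1 and 49.0% in pup 2. The processed transcript Tdo2-203, which has no annotated coding frame and measures 612 nt, came close with 42.4% and 39.2%. A further coding transcript, Tdo2-204 (1616 nt), held 11.0% and 9.91%. By reads the picture differed: Tdo2-201 took 80.2% and 81.9% of the gene's counts, and Tdo2-203 only 11.2% and 10.1%, or 56.8 and 56.4 counts. The short length of Tdo2-203 raises its TPM per read, and on coding transcripts alone Tdo2 was at 4.22 and 4.61 TPM (4.42 ± 0.276) in place of 7.58, still the lowest of the 9. How the reads of exons that these transcripts share were divided is the estimate of the authors' program.

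In Afmid the main coding transcript Afmid-201 held 77.0% of the gene's TPM in pup 1 and 84.2% in pup 2, and the retained-intron transcript Afmid-206 (345 nt) held 12.9% and 4.47%. The latter rests on 33.8 and 11.3 counts. A further coding transcript, Afmid-205, held 7.25% and 7.77%. On coding transcripts alone Afmid was at 25.3 TPM (pup 1) and 26.3 TPM (pup 2), so the pup with the higher value changed with the transcripts counted.

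Between the littermates, Tat stood apart from the other 8 enzymes. It was 1.68-fold higher in pup 1 than in pup 2, a log2 ratio of −0.73 for pup 2 over pup 1 with 1 TPM added to each value before the logarithm, which shrinks the differences of weakly expressed genes. The authors' credible intervals, which cover counting and read assignment and whose level the headers do not give, were 91.1 to 95.3 TPM in pup 1 and 53.8 to 57.5 in pup 2, without overlap. Among the 1617 protein-coding genes within 2-fold of the mean TPM of Tat, itself included, 7 (0.433%) were as far apart or farther, Tat being 1 of them. With 1 library from each of 2 animals, the difference has no replicate check.

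None of the 9 was at least 2-fold apart with credible intervals that do not overlap, against 0.566% of the 12711 genes whose TPM averaged 1 or above that were that far higher in pup 2 and 0.0629% that far lower. At a difference of at least 25%, under the same rule otherwise, Tat alone was lower in pup 2 (background 3.19%) and no enzyme was higher (background 2.14%). Of all genes past 25%, 59.9% were lower in pup 2, and with TMM-scaled counts 42.6% were; Tat was the only one of the 9 past it under either scaling.

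Intervals that do not overlap at any fold, a rule chosen after seeing the data, set Hpd, Hgd and Fah higher in pup 2 (background 6.27%) and Tat lower (background 13.8%). These 3 enzymes follow Tat in the pathway and had log2 ratios of 0.15, 0.21 and 0.15. By reads per depth, Hpd was 1.14 times as high in pup 2 (95% exact binomial interval 1.12 to 1.16), Fah 1.14 times (1.12 to 1.17) and Hgd 1.2 times (1.16 to 1.24), whereas Tat was 0.604 times as high (0.582 to 0.626). Reads were not tagged by molecule as far as the labels say, so these intervals and all floors on 0 counts speak for counting error alone. Of the protein-coding genes within 2-fold of its mean TPM, itself included, 12.9% were at least as far apart as Hpd. For Fah this share was 14.5% and for Hgd 8.86%, so differences of this size were not rare between these livers. The first step of the branch and the 3 later ones thus had ratios in opposite directions, and the sum of the branch was slightly higher in pup 2.

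The tryptophan enzymes differed by less than Hgd did. Tdo2, Kmo, Kynu and Haao had log2 ratios of 0.07 to 0.09, and all 5 had credible intervals that overlap. In counts per depth the ratio of Tdo2 was 1.13 (0.996 to 1.27) and that of Afmid 1.05 (0.985 to 1.12), both with intervals that include 1. Those of Kmo, 1.08 (1.02 to 1.15), Kynu, 1.12 (1.04 to 1.2), and Haao, 1.08 (1.03 to 1.13), lay above 1. On TPM 7 of the 9 genes were higher in pup 2, against 36.6% of all 12711 genes, whose median log2 ratio was −0.05. With TMM-scaled counts 8 of the 9 were higher, and the median of all genes moved by 0.054 to 0.003. The share of all genes higher in pup 2 was not computed under that scaling. Afmid turned from −0.07 to 0.10, more than the median moved, and Tdo2 and Kynu each rose to 0.19. These counts are not corrected for length, and the estimated length of Afmid was 1983 nt in pup 1 and 2127 nt in pup 2.

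**Figure D3:**
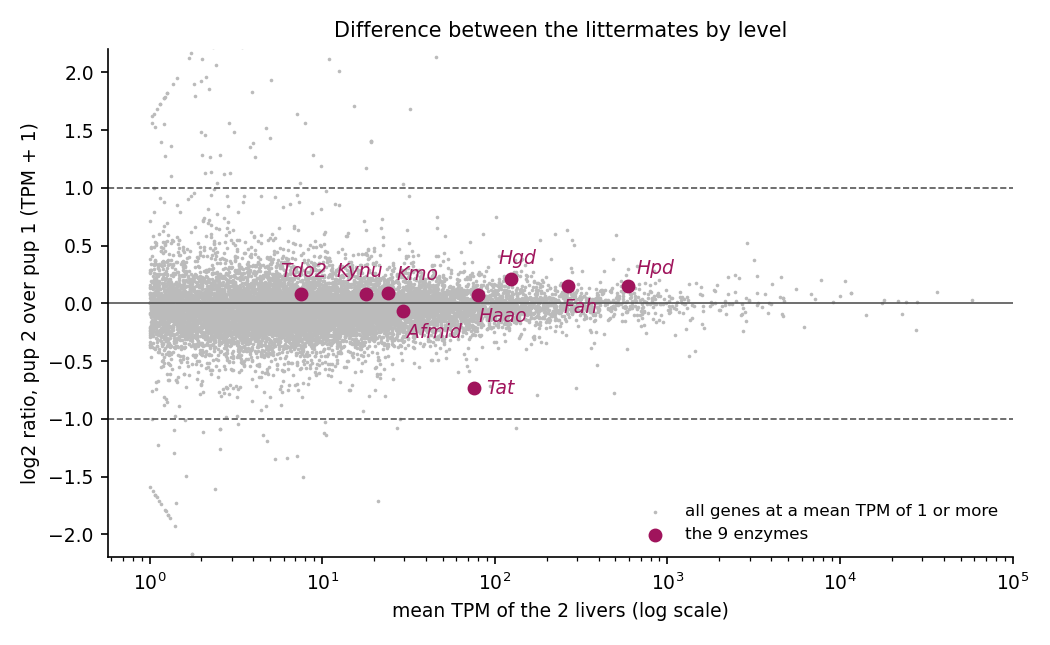
Difference between the livers (log2 ratio of TPM + 1, pup 2 over pup 1) against mean TPM on a log axis; grey points are the 12711 genes whose TPM averaged 1 or above, dark red points the 9 enzymes, dashed lines 2-fold, and points past the vertical limits are not drawn. Tat lies at −0.73, below most grey points of its level, and the other 8 lie between −0.07 and 0.21.

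Genes known to be switched on around birth like Tat were followed beside it. G6pc, the glucose-6-phosphatase of glucose release, was at 181 TPM (pup 1) and 85.2 TPM (pup 2), and Pck1, the entry enzyme of gluconeogenesis, at 617 and 361 TPM. Like Tat, both were higher in pup 1, by 2.12-fold and 1.71-fold. Cps1, the first enzyme of the urea cycle, was at 273 and 246 TPM, and Sds, the serine dehydratase, at 28.5 and 28.1 TPM, closer between the livers than Tat, Pck1 and G6pc were. All 4 were detected and all 4 had a lower value in pup 2, as did 8009 of all 12711 genes. Their log2 ratios were −1.08 for G6pc, −0.77 for Pck1, −0.15 for Cps1 and −0.02 for Sds, whose credible intervals overlap. The median of the 4, between Pck1 and Cps1, was −0.46, against −0.05 over all 12711 genes.

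The receptor and factors that act on Tat and Tdo2 differed in both directions. Nr3c1, the glucocorticoid receptor, was at 27.0 TPM (pup 1) and 20.7 TPM (pup 2) (log2 ratio −0.37). By reads per depth it was 0.871 times as high in pup 2 (0.823 to 0.922), a difference of less than 25%. Its estimated length was 2807 nt in pup 1 and 3111 nt in pup 2, and TPM is corrected for length. Hsd11b1, which regenerates active glucocorticoid, was at 222 and 225 TPM. Cebpa was at 16.4 and 27.8 TPM and Cebpb at 24.1 and 37.96 TPM, both C/EBP factors of hepatocyte genes and both higher in pup 2 (log2 ratios 0.73 and 0.63). Foxa3, a forkhead factor, was at 53.8 and 73.5 TPM, while Hnf4a was at 24.1 and 21.8 TPM. Of the 10 genes of this list 9 were detected, all but Hsd11b2, the enzyme that inactivates glucocorticoid in kidney, at 7 and 2 counts. The highest was Hsd11b1 and the lowest of those detected Foxa1, at 1.29 and 2.01 TPM.

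Beside these differences, the summed hepatocyte markers of pup 2 were 0.925 times those of pup 1, the muscle markers 20.1 times, the pancreas markers 44.6 times and the proliferation markers 0.861 times. Their part in the values of Tat and of the other enzymes was not tested.

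**Figure D4:**
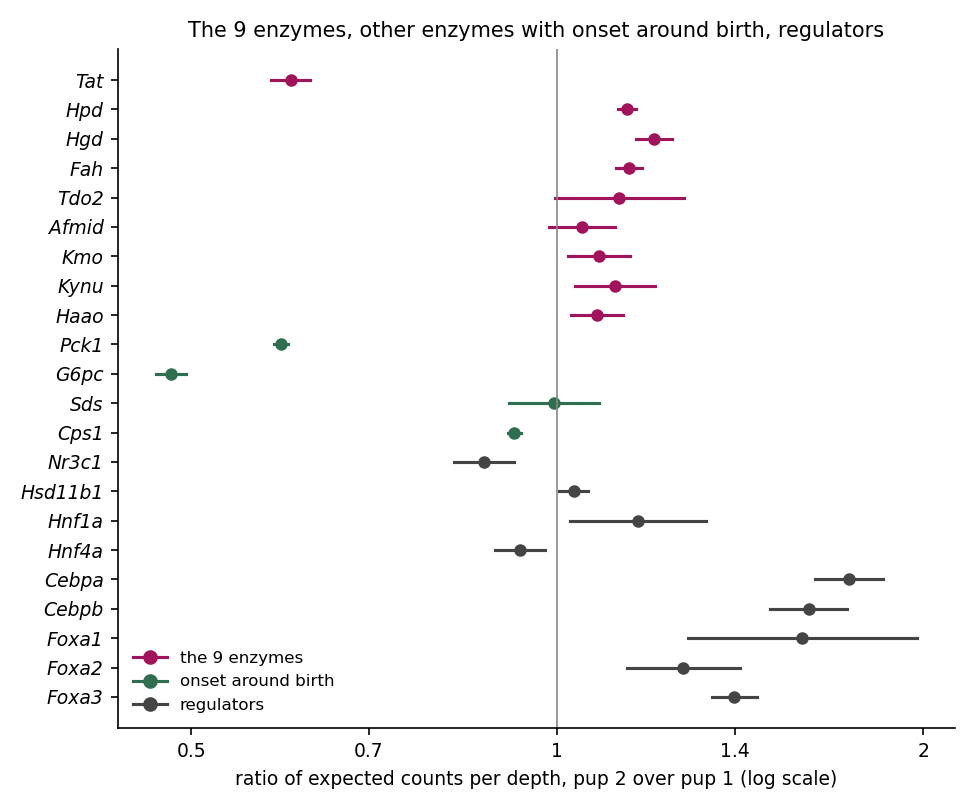
Ratio of expected counts per depth, pup 2 over pup 1, on a log axis, with exact 95% binomial intervals for counting error as bars; the 9 enzymes are dark red, other enzymes with onset around birth green and 9 regulators grey. Tat at 0.604 lies beside Pck1 and G6pc on the left of 1, and Hpd, Hgd and Fah lie on the right.

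The other abundant genes of tyrosine use lay within the range of the tyrosine enzymes. Gstz1 was at 171 TPM (pup 1) and 185 TPM (pup 2), and the aspartate aminotransferases Got1 and Got2 at 112 and 120 TPM and at 268 and 259 TPM. Of the 5 listed genes 3 were detected; Hpdl and the secreted amino acid oxidase Il4i1 (1.14 and 0.94 TPM) were not. All 8 listed genes around tetrahydrobiopterin, a cofactor of aromatic amino acid metabolism, were detected. The highest of them was Pcbd1, a recycling dehydratase that also binds HNF1, at 284 and 300 TPM, and the lowest Dnajc12, a cochaperone, at 14.5 and 14.9 TPM. Gch1, which catalyses the first step of cofactor synthesis, was the only one of the 8 past the 25% rule, at 25.9 and 33.3 TPM.

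Among the 14 other genes of tryptophan and kynurenine use, 11 were detected. Kyat3 was the highest, at 149 and 175 TPM, followed by Qprt, and Aldh8a1, which oxidises the product of Acmsd, was at 97.2 and 102.1 TPM. Kyat1, a further kynurenine aminotransferase, was at 28.4 and 28.1 TPM and Aadat at 44.5 and 50.7 TPM. Nadsyn1, the last step of NAD synthesis from quinolinate, was lower at 8.10 and 9.63 TPM. Over the 43 genes of these related lists whose TPM averaged 1 or above, 0 were 2-fold higher in pup 2 and 1, G6pc, was 2-fold lower, and at 25% 6 were higher (Gch1, Inmt, Cebpa, Cebpb, Foxa1 and Foxa3) and 3 lower (Nr3c1, Pck1 and G6pc). Over all genes these shares were 0.566% and 0.0629% at 2-fold, and 2.14% and 3.19% at 25%; the lists were chosen with results known.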

How the data were processed

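The 2 libraries of newborn mouse liver, 1 per pup, were each deposited as a gene table and a transcript table in the layout of RSEM. Assembly mm10 and annotation GENCODE M4 were used per the deposited notes; for the aligner, the counter, their versions and the strand setting: not given in the sources used here. The deposited expected counts are estimates of the reads of each gene or transcript. TPM values were deposited by the authors, per effective length (length less 99 nt) and scaled to a fixed total, with credible bounds. FPKM values deposited by the authors served as an alternative only. The percent of a gene's TPM held by each transcript (IsoPct) was also deposited by the authors. The labels name a total RNA assay but their protocols also cite a kit manual with oligo-dT priming, so the priming is not settled.

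Symbols, biotypes and coordinates came from GENCODE M21 on GRCm38 by Ensembl identifier (42462 of 43346 matched), and promoters from RefSeq. Detection was a TPM of 1 in each liver. Differences between livers used log2(TPM + 1), a mean TPM of 1 or more and credible intervals without overlap. A count of 0 allows up to 3 counts, 0.0712 CPM in pup 1 and 0.0724 in pup 2. All 9 genes were named, with the genes of each list that stand in a pair, are its highest or lowest, pass 2-fold or lie over or next to one of the 9; further list genes were named after their values were seen. Scale factors came from edgeR 4.0.16 (TMM) and DESeq2 1.42.0 in R 4.3.3, on counts rounded to whole numbers; the rest used scipy 1.17.1, numpy 2.4.6 and pandas 2.3.3 under Python 3.11.15. The rule for differences between the livers was tested on simulated data, with changes larger than that of Tat. Levels, transcripts and motifs were not tested in this way. Alternatives changed the scaling, pseudocount, filters, TPM estimate, transcripts counted and liver left out. The 9 genes, the lists and the rules were chosen with earlier results of these data known. Protein sequences were not used here, and 1 gene of the lists, with its pair, is not reported here.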

Additional observations from a re-analysis of the deposited data

How the results depend on the processing

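The share of TPM held by the 9 enzymes was 0.122% and became 0.168% over protein-coding genes without globins and mitochondrial genes, a smaller total; it was 0.118% to 0.125% with 1 liver left out. The ratio of the branches kept its sign and its size above the spread with posterior mean TPM, counts not scaled to length, coding transcripts alone and without Hpd (1.55 to 2.78 on the log2 scale), and was 2.71 and 2.75 with 1 liver left out. Genes 2-fold apart between the livers numbered 80, against 36 at a mean TPM of 5 or more, where fewer genes were tested, and 159 without the rule on credible intervals. Genes at least 25% apart numbered 678, against 432 and 1344. Tat was the only one of the 9 past 25% under each of these, and none was past 2-fold. Afmid over Kmo turned to −0.12 with expected counts scaled to depth and not to length. No paired analysis was possible because there is 1 group. Pair calls and counts between livers could not be repeated with 1 liver left out, which leaves no spread. Precision is limited by n = 2 and by low counts for Tdo2, for the minor transcripts and for Ido2 and Hpdl, and the posterior TPM of Hpd in pup 2 has bounds (607 to 622) that lie below its TPM of 623.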

Other observations

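Carriers that bring aromatic amino acids into or out of cells were measured beside the enzymes, and all 7 listed were detected. The highest was Slc43a1, a facilitated carrier of large neutral amino acids, at 59.3 TPM (pup 1) and 64.4 TPM (pup 2), and the lowest Slc6a19, a sodium-coupled carrier of gut and kidney, at 1.19 and 1.1 TPM. Slc3a2, the partner chain of several amino acid exchangers, was at 36.9 and 34.0 TPM. The 7 together summed to 128 TPM in each liver, and none passed the 25% rule, which adds 1 TPM before the logarithm. Without that addition Slc7a8, at 1.78 and 2.37 TPM with credible intervals that do not overlap, was 1.33-fold higher in pup 2.

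Tryptophan can also leave by decarboxylation and methylation or towards serotonin. Tph1, which starts serotonin synthesis outside the brain, had 0 counts in pup 1 and 2 in pup 2. Ddc, the aromatic amino acid decarboxylase, was at 15.5 and 16.8 TPM. Inmt, which methylates tryptamine and other amines, was at 8.61 TPM (pup 1) and 16.3 TPM (pup 2), with 298 and 569 counts. Its log2 ratio of 0.85 was the largest in size among the 14 other genes of tryptophan use, higher in pup 2 where Tat was lower.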
